A study of Rattus norvegicus with 24 samples.

Results

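The brains of rats exposed to halothane 10 times were compared with those of rats exposed 5 times, on 3 arrays each. These are 6 of the 24 arrays of a series on repeated anaesthesia, and they were chosen by their titles. Of the 8799 probe sets 59 are array controls and were left out, and 7389 of the rest passed a filter on dim signals and were tested. Each exposure lasted 90 min at 0.8% halothane, with 2 exposures a day and 3 h of recovery between them. The shorter course ran over 2.5 days and the longer over 5 days, so the number of exposures and the length of the course cannot be told apart. By the same schedule the fifth exposure was the first of its day and the tenth was the second of its day. The 12 controls were given halothane for 3 min and then perfused with ice-cold saline, and they serve here as the reference level and for the spread. The remaining 6 arrays had 5 or 10 exposures of 90 min to 1% isoflurane on the same schedule, and they enter the estimate of the spread and a single test of whether the difference between courses depended on the agent. Strain, sex, age and the time from the last exposure to tissue collection are not given in the sources used here. Nothing says that the arrays of a group came from separate animals, so the p-values cover the spread among these arrays only, and part of it may be technical.

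Halothane is a volatile general anaesthetic, a halogenated alkane that enhances inhibitory GABA-A and glycine receptors, opens background potassium channels and damps excitatory transmission. Part of an inhaled dose is oxidised in the liver by cytochrome P450 enzymes to reactive products, and glucuronosyl-, sulfo- and glutathione transferases are the general conjugating enzymes for drugs and steroids. In the brain, immediate early genes and several secreted peptides are transcribed in response to neuronal firing, so their messenger RNA is widely read as a record of recent activity.

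The arrays carried signal for neurons, astrocytes and oligodendrocytes. The summed intensity of the 15 neuronal markers lay between 14423 and 20587 over the controls and both halothane groups. Signals from 9 bacterial spike-in probe sets, which are RNA added during sample preparation, formed a high and a low level separated by a gap of 0.57 on the log2 scale. Replicate 3 of both halothane groups was at the high level and replicates 1 and 2 at the low level, so each group holds the same mixture. Replicate 2 of the 5-exposure group had more haemoglobin than the other 2 arrays of its group. It also had less signal of single ribosomal and mitochondrial genes, such as Rpl35 and Atp5f1a. The summed signal of the whole lists set no array of that group apart on the low side. It was 38772, 43063 and 50582 for ribosomal proteins and 34050, 36583 and 40316 for oxidative phosphorylation. Because tissue was bulk brain, a change in the number of cells of a type and a change in RNA per cell cannot be told apart.

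One transcript passed the test between the courses, and it entered the test through the group in which it was high. Ugt2b35, a UDP-glucuronosyltransferase of the steroid- and drug-conjugating family, was lower after the longer course. Its intensity was 28.7, 74.0 and 30.6 after 5 exposures and 4.7, 10.2 and 3.9 after 10 exposures, and the controls ran from 4.3 to 16 with a median of 7.05. All 3 arrays of the shorter course lay above every control and all 3 of the longer course lay inside the control range or just below it. Values under 16.5, the 25th percentile of the table, had been raised to that floor before log2 was taken, so the log2 difference of -1.28 ± 0.22 (SE, limma, adjusted p = 0.0401) measures the drop to the floor and not to the level of the longer course. All 3 arrays after 10 exposures and all 12 controls were at or below the floor, which sets their spread to 0, and the SE and p rest partly on that. A probe set was tested if at least 3 of the 24 arrays were above the floor, and for Ugt2b35 these were the 3 arrays of the shorter course and 1 isoflurane array. A gene that enters in this way has to differ, so the call is a description of these arrays and not independent support for a difference. Of the 7389 probe sets 49 would not have been tested without the arrays of the shorter course, and 30 without those of the longer. With no filter the adjusted p was 0.0809. It was 1 of 7389 probe sets called (0.0135%), with 0 called higher (0%) and 1 called lower (0.0135%). The difference was -0.84 without replicate 2 of the 5-exposure group, whose value was the highest. The call was lost without any 1 array of the 10-exposure group (adjusted p from 0.141 to 0.172), any 1 of the 12 controls (0.0614 to 0.0665) or any 1 array of the 5-exposure isoflurane group (0.0642 to 0.0657). With a floor at the 10th percentile the difference was larger, -2.57, and did not pass (adjusted p = 0.195), and with only the 6 halothane arrays in the fit the unadjusted p was 0.0186 and the adjusted p 0.968. A second Ugt2b35 probe set was under the floor on all 12 controls and all 6 halothane arrays.

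**Figure D1:**
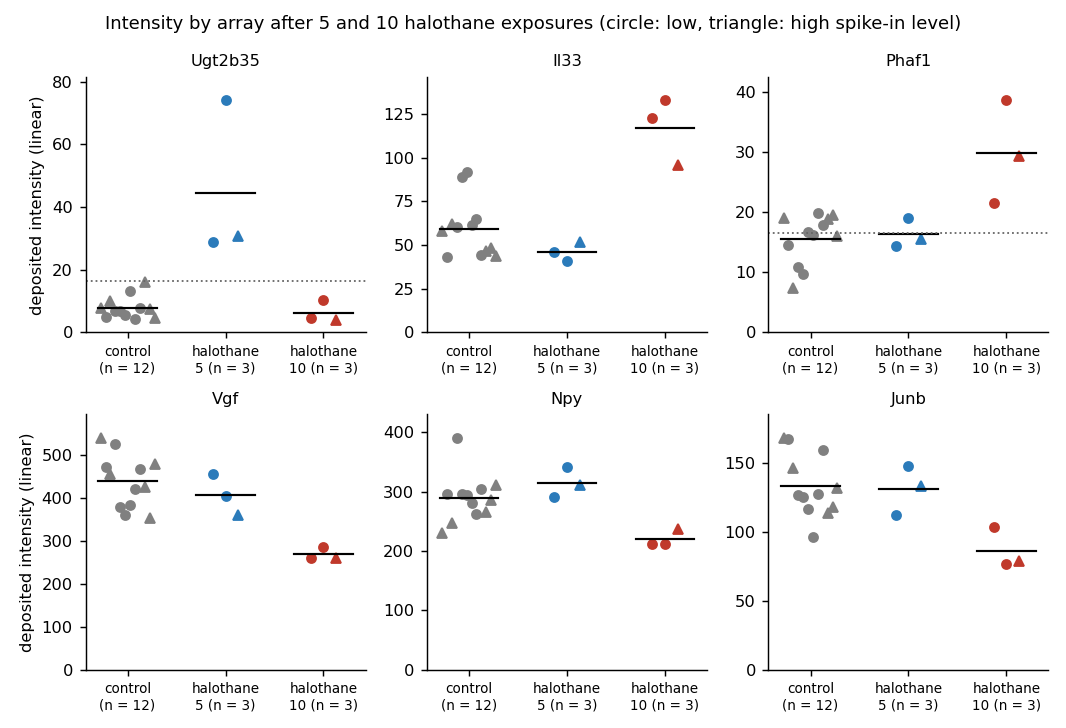
Deposited intensity of 6 genes on a linear axis from 0, 1 point per array, for the 12 controls and for 3 arrays each after 5 and 10 halothane exposures; horizontal bars are group means, triangles mark arrays with a high spike-in level, and the dotted line is the floor of 16.5. Ugt2b35 is above the floor only after 5 exposures, Il33 and Phaf1 are above all controls only after 10, and the 3 Vgf values after 10 exposures (260.1 to 286.6) lie below every control (lowest 354.8).

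Without correction for multiple testing, 278 probe sets had a p under 0.05 (3.76%), 137 higher (1.85%) and 141 lower (1.91%), and without replicate 1 of the 5-exposure group there were 428. The arrays of the courses did not overlap for 205 probe sets that were higher after 10 exposures (2.77%) and 353 that were lower (4.78%). Both courses were also set against the range of the 12 controls, gene by gene, over the 4206 genes with a probe set of their own. After 10 exposures all 3 arrays lay above every control for 25 genes (0.594%) and below every control for 22 genes (0.523%). After 5 exposures the same was true of 3 genes above (0.0713%) and 10 genes below (0.238%). Only 1 gene, Sult1a1, had all 6 halothane arrays above every control (0.0238%), and only 1, the fucosyltransferase gene Fut1, had all 6 below (0.0238%). Fut1 was singled out after its values were seen, and its other probe sets had log2 differences of -0.63 and -0.01 between the courses. Of the 107 log2 differences described here and below, 59 moved by over 1.5 times when 1 of the 6 halothane arrays was left out. The genes named next, apart from Nfe2l2, had the lowest p-values of the comparison. None of them passed (adjusted p from 0.176 to 1), so their values are given without a call.

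Among genes with higher means after 10 exposures, Il33 had the lowest p. It encodes interleukin-33, a nuclear cytokine that in brain is made mainly by oligodendrocytes and astrocytes. Its intensity was 45.9, 40.6 and 51.5 after 5 exposures and 122.5, 132.8 and 95.8 after 10, with controls from 43.0 to 91.8. All 3 arrays of the longer course were above every control, and all 3 of the shorter course were below the control median of 59.0. The log2 difference was 1.34 ± 0.27 (SE, limma, adjusted p = 0.176), and it passed only when arrays were weighted by their quality (1.47, adjusted p = 0.0333). Phaf1, which takes part in the formation of autophagosomes, had 14.4, 19.1 and 15.5 after 5 exposures and 21.6, 38.6 and 29.3 after 10, around the floor of 16.5. These 3 later values were above every control (highest 19.9), and the log2 difference was 0.74 (adjusted p = 0.303), or 0.96 and past the threshold without replicate 1 of the 10-exposure group (adjusted p = 0.0229). The probe set M33648_at, which has no gene name here, gave 22.2, 47.7 and 5.8 and then 49.2, 94.8 and 67.1. Its controls did not exceed 15.8, so 2 of 3 arrays of the shorter course and 3 of 3 of the longer course lay above every control. Its log2 difference between courses was 1.39 (adjusted p = 0.35), and it passed without replicate 2 of the 5-exposure group (1.83, adjusted p = 0.0121) or without replicate 3 of the 10-exposure isoflurane group (1.39, adjusted p = 0.039).

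The next 5 genes are set out by role, an order chosen after their values were seen. Glud1, mitochondrial glutamate dehydrogenase, had 497.2, 292.2 and 485.2 after 5 exposures and 597.9, 526.0 and 607.9 after 10. The longer course was level with the controls (512.0 to 654.3), and the shorter course was below all of them. The log2 difference was 0.48 (unadjusted p = 0.00446), and 0.23 without replicate 2 of the 5-exposure group. The other Glud1 probe sets had differences of 0.15 and -0.01. Glul, glutamine synthetase of astrocytes, had 1529.9, 1602.4 and 1423.4 and then 2001.1, 1752.8 and 2191.2, a log2 difference of 0.38, with 0.12 to 0.19 on its other probe sets. Gatm, the first enzyme of creatine synthesis, had 245.2, 103.4 and 142.2 and then 305.8, 277.6 and 249.5, a difference of 0.85, or 0.57 without replicate 2 of the shorter course. In both genes the 2 courses did not overlap, and the controls covered most of the span. Of 14 genes of glutamate and GABA synthesis and uptake, 0 passed limma's test. In that list 1 higher and 1 lower gene had an unadjusted p under 0.05, and 8 had higher and 6 lower means (median 0.01). Gclm, the regulatory subunit of the enzyme that limits glutathione synthesis, had 21.2, 18.4 and 17.3 and then 38.2, 26.3 and 24.1, and all 3 later arrays exceeded the highest control of 23.5. Its log2 difference was 0.61, but its other probe sets had 0.09 and -0.06. Nfe2l2, the transcription factor that drives Gclm and other antioxidant genes, had 58.7, 28.8 and 31.0 and then 61.1, 58.7 and 64.3, with all 3 later arrays above the highest control of 55.2. The courses met at 58.7, and the difference was 0.71, with 0.26 on a second probe set. Nfe2l2 was named from a list of antioxidant defence genes and not for 1 of the lowest p-values of the comparison. Of the 26 genes of that list tested, 0 passed limma's test and 1 had an unadjusted p under 0.05. Their means were higher for 11 and lower for 14 (median -0.05), so the list as a whole was not higher.

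The rest of the higher genes with the lowest p-values have various roles. Cd63, a tetraspanin of late endosomes and exosomes, had a log2 difference of 0.75, which was 0.45 without replicate 2 of the 5-exposure group. Dmac2, an assembly factor of respiratory complex I, had the largest difference of them, 1.82, from 15.4, 13.5 and 16.9 to 69.9, 65.4 and 44.5. Its controls reached 58.9, so the later arrays were not all outside them, and with a floor at the 40th percentile the difference was 0.64. Vps39, a tether of endosome and lysosome fusion, differed by 1.35 (0.42 with that floor), and Hsd3b5, a steroid dehydrogenase, by 0.93, with all 3 arrays of the shorter course under the floor. Rpl14, a protein of the large ribosomal subunit, differed by 0.39, and by 0.25 without replicate 2 of the 5-exposure group.

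**Figure D2:**
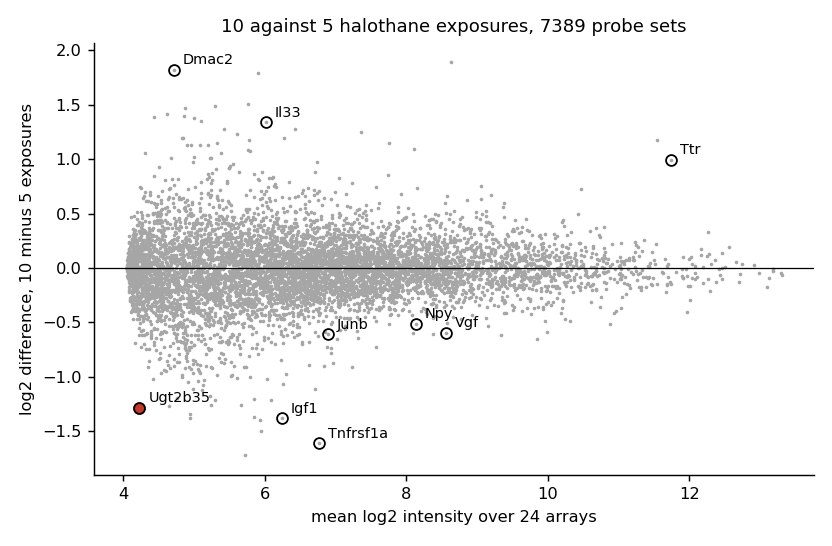
Log2 difference between 10 and 5 halothane exposures (vertical) against the mean log2 intensity over 24 arrays (horizontal) for 7389 probe sets, 1 point each, with 9 genes circled. The filled point, Ugt2b35 at -1.28, is the only one that passed, and it lies at the dim end, whereas Vgf and Npy lie at intermediate intensity with differences of -0.59 and -0.51.

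Vgf and Npy were among the 12 genes with lower means after 10 exposures that had the lowest p-values. Vgf is a granin-like precursor that is cut into several peptides and is strongly induced by neurotrophins and firing. Npy encodes neuropeptide Y, an inhibitory peptide of cortical and hippocampal interneurons. Because Vgf is a textbook target of the cAMP response element, the 250 bases upstream of both annotated starts are shown, with that element, TGACGTCA, in capitals wherever it occurs.
Vgf (RefSeq, GRCr8, chr12:25277021-25277270, minus strand, 5′ to 3′): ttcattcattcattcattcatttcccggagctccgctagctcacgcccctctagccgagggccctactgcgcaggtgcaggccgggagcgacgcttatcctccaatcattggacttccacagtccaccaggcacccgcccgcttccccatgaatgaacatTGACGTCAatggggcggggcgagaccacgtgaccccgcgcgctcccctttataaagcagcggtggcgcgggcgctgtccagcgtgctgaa
Npy (RefSeq, GRCr8, chr4:80211861-80212110, plus strand, 5′ to 3′): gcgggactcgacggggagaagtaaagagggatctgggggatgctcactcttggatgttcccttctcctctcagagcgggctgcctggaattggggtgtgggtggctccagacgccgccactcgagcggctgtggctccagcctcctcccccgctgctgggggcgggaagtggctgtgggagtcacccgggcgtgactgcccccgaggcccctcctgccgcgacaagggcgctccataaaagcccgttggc
The element starts 90 bases before the Vgf start and these letters are not in the Npy window. The motif equals its own reverse complement, so one search covers both strands, and 531 of 33469 promoters of the same 250 bases hold it (1.59%). The match is a description of the letters only.

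Vgf had 457.3, 405.8 and 360.0 after 5 exposures and 260.3, 286.6 and 260.1 after 10. All 3 later arrays were below the lowest of the 12 controls (354.8), and all 3 earlier arrays were inside the control range. The isoflurane arrays had 357.7, 423.2 and 253.4 after 5 exposures and 339.6, 341.8 and 284.4 after 10, so all 3 arrays of the longer isoflurane course, and 1 of the shorter, were below every control too. The log2 difference was -0.59 ± 0.17 (SE, limma, unadjusted p = 0.00199, adjusted p = 0.893), and it ran from -0.68 to -0.51 over all alternatives. Npy had 290.7, 342.6 and 312.2 and then 212.1, 212.0 and 237.9. The courses did not overlap, and 2 of 3 later arrays were below the lowest control (231.0). The difference was -0.51 ± 0.14 (SE, limma, unadjusted p = 0.00136, adjusted p = 0.839), and from -0.57 to -0.45 over the alternatives.

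The other granins and processing enzymes had small differences. Of 12 genes of the regulated secretory route that were tested with limma, 0 passed, 1 had an unadjusted p under 0.05 (Vgf), and 6 had higher and 6 lower means, with a median log2 difference of -0.03. Over all 4206 genes the median was -0.02, 44.9% had a higher mean and 53.7% a lower mean, and 1.93% had an unadjusted p under 0.05 and were higher and 2.07% lower. Chgb, chromogranin B, had a difference of -0.09, Pcsk2, the neuronal prohormone convertase, -0.12, and Cpe, carboxypeptidase E, 0.22, or 0.02 without replicate 2 of the 5-exposure group. Of 25 neuropeptide precursors 0 passed, 1 had an unadjusted p under 0.05 (Npy), and 11 had higher and 13 lower means, with a median of -0.01. Single members ran from -0.51 to 1.25, and 0 of those with higher means had an unadjusted p under 0.05. The other members with the lowest p, described next, had lower means as well and do not stand for the list. Somatostatin (Sst) had 826.1, 924.3 and 868.6 and then 613.9, 721.2 and 796.2, a log2 difference of -0.30, and cholecystokinin (Cck) had 983.9, 1007.8 and 1086.3 and then 915.5, 857.8 and 653.4, a difference of -0.36. In both genes the courses did not overlap, and 1 value of the longer course lay below the controls. A second Sst probe set had a difference of -0.47. Pnoc, the nociceptin precursor, had a difference of -0.26 with overlapping arrays.

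Of 24 immediate early genes, which are transcribed within minutes of neuronal firing, 0 passed limma's test, 2 had an unadjusted p under 0.05, both lower, and 8 had higher and 16 lower means after 10 exposures. Their median log2 difference was -0.13, and it stayed between -0.22 and -0.11 when any halothane array was left out. Single members ran from -0.74 to 0.92, so the mostly lower genes described next do not stand for the whole list. Junb, an AP-1 transcription factor, had 112.1, 147.6 and 133.3 after 5 exposures and 103.3, 76.8 and 78.6 after 10. The courses did not overlap, and 2 of 3 later arrays were below the lowest control (96.1), a log2 difference of -0.61 (unadjusted p = 0.00674), and a second probe set had -0.43. Arc, a synaptic regulator of AMPA receptor traffic, had 310.0, 326.8 and 356.0 and then 197.5, 234.5 and 338.2. Replicate 3 of the longer course was inside the range of the shorter, and the other 2 arrays were below every control (lowest 268.3). The Arc difference was -0.40 (unadjusted p = 0.0343), and -0.23 without replicate 1 and -0.62 without replicate 3 of the longer course. Egr1, a zinc finger factor, differed by -0.36 (-0.50 to -0.12 on other probe sets), and the nuclear receptors Nr4a2 and Nr4a1 by -0.41 and -0.39, with overlapping arrays. Jun differed by 0.18 (-0.32 to 0.12 on other probe sets). Fos differed by -0.04, and by -0.67 and -0.14 on its other probe sets, with 322.4, 307.9 and 248.0 against 234.2, 269.7 and 355.0 on the brightest, which overlap. Genes of non-overlapping arrays made up 1 higher and 1 lower of the 24, against 3.21% and 5.37% of all genes.

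**Figure D3:**
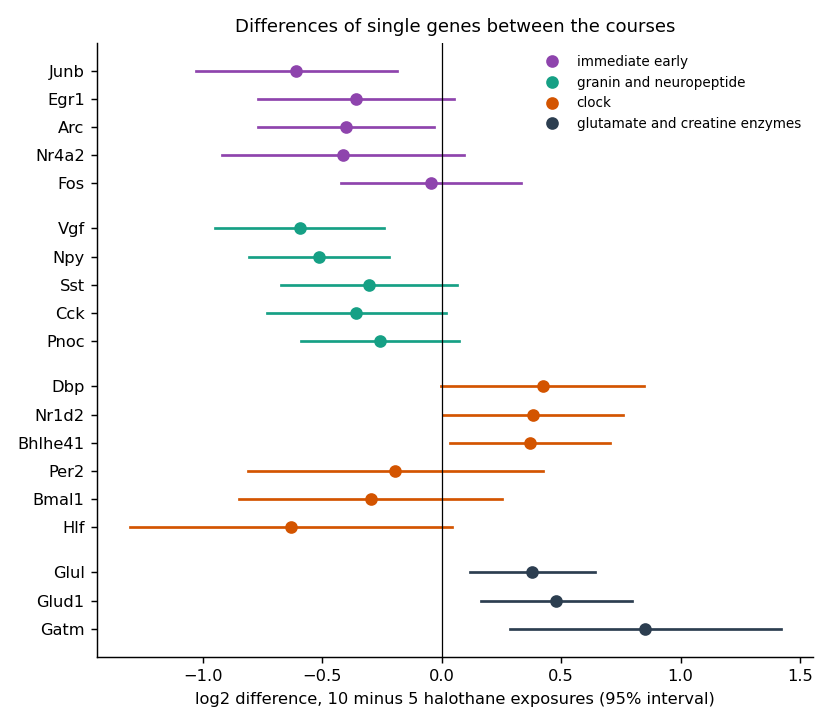
Log2 difference between 10 and 5 halothane exposures with its 95% interval for 19 genes in 4 groups (3 arrays a course, limma). The intervals of Junb, Arc, Vgf and Npy lie below 0, those of Glul, Glud1, Gatm, Bhlhe41 and Nr1d2 above 0, and that of Fos spans 0. Vgf, Npy, Glul, Glud1 and Gatm were named for their low p, so their intervals leave out 0 by that choice. The other genes are picked from their lists. Junb, Arc, Bhlhe41 and Nr1d2 are the members of theirs with an unadjusted p under 0.05, so the same holds for them. All immediate early genes shown had lower means, against 8 higher and 16 lower in the list. None of the genes shown passed after correction over 7389 probe sets.

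Clock genes keep daily time through a loop of activators and repressors. Of 10 tested, 0 passed limma's test, 2 had an unadjusted p under 0.05, both higher, and 5 had higher and 5 lower means (median -0.08). The 3 highest were targets or repressors of the core loop. Dbp, an output factor driven by CLOCK and BMAL1, had 312.2, 384.0 and 344.6 after 5 exposures and 502.7, 444.5 and 444.8 after 10, a log2 difference of 0.42 (unadjusted p = 0.0518) without overlap and within the control range. Bhlhe41, a repressor of the same loop, had 289.4, 217.6 and 188.9 and then 301.8, 305.8 and 277.6. All 3 later arrays were above every control (highest 271.2), and 1 earlier array was too (difference 0.37, unadjusted p = 0.0317, and 0.23 without replicate 3 of the shorter course). Nr1d2, a nuclear receptor that represses Bmal1, had 189.5, 164.8 and 133.1 and then 239.5, 224.2 and 171.4 (difference 0.38, unadjusted p = 0.0471, and 0.25 without that same array). Bmal1 itself had a difference of -0.30, Per2 of -0.19, Bhlhe40 of -0.19, Tef of -0.24 and Hlf of -0.63, all with overlapping arrays. The hour of tissue collection was not tested, since the labels give none. By the schedule the shorter course ended on the first exposure of a day and the longer on the second. A difference in the hour could therefore not be told apart from one in the number of exposures.

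Glucocorticoids are the adrenal stress hormones, and the genes that respond to them had small differences. Of 14 tested, 0 passed limma's test, 0 had an unadjusted p under 0.05, and 11 had higher and 3 lower means (median 0.15). The median stayed between 0.11 and 0.27 when any halothane array was left out. The list was led by Gpd1, cytosolic glycerol phosphate dehydrogenase, at 0.77 with overlapping arrays (0.20 without replicate 1 of the shorter course and 1.48 over the low spike-in arrays), Errfi1, an inhibitor of the EGF receptor, at 0.31 (-0.24 on a second probe set) and Mt3, the brain metallothionein, at -0.20. Sult1a1, a phenol sulfotransferase, was above the controls in both courses. Its 2 probe sets had 88.1, 96.1 and 97.4 against 98.2, 106.9 and 95.6, and 209.2, 227.1 and 215.1 against 225.3, 242.5 and 276.2. All of these 12 values were above every control of their probe set (highest 77.6 and 184.9). The log2 differences between courses were 0.09 ± 0.22 and 0.19 ± 0.21 (SE), with overlapping arrays.

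Enzymes of drug and steroid metabolism include Ugt2b35, whose call rests on its entry through the shorter course and is not read as a result about the group. Of 59 tested, 0 others passed limma's test, 2 had an unadjusted p under 0.05 and were higher, 4 with Ugt2b35 were lower, and 21 had higher and 37 lower means (median -0.08). Non-overlapping arrays were found for 2 higher and 9 lower members, Ugt2b35 included, which is 9 of 59 against 5.37% of all genes. Ephx2, soluble epoxide hydrolase, had 241.3, 345.1 and 329.0 and then 164.8, 252.1 and 190.1, a log2 difference of -0.60 (unadjusted p = 0.0109), with 2 of 3 later arrays below every control, and its other probe sets had -0.83 and -0.22. The glutathione transferases Gstm5 and Gstm1 had differences of 0.41 (unadjusted p = 0.0165) and 0.31 (unadjusted p = 0.0165). Gstm1 had 0.10 and 0.08 on its other probe sets, and its 907.6, 957.1 and 908.4 against 1065.1, 1192.7 and 1191.0 did not overlap but stayed within the controls. The Ugt and Gstm families have near-identical members, so a probe set of one can pick up RNA of another.

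The receptors and channels on which volatile anaesthetics act showed no call. Of 17 GABA-A and glycine receptor genes 0 passed limma's test and 1 had an unadjusted p under 0.05, with 9 higher and 8 lower means and a median of 0.05. That gene was Gphn, gephyrin, the scaffold that clusters these receptors at inhibitory synapses. Gphn had 171.1, 98.5 and 156.3 after 5 exposures and 267.6, 186.1 and 176.3 after 10, a log2 difference of 0.58 (unadjusted p = 0.00664) without overlap, and 0.34 without replicate 2 of the shorter course. The subunits Glra2, Gabra3 and Gabrr1 differed by 0.62, -0.33 and -0.49, with overlapping arrays. Each moved both ways with single arrays. Glra2 had 0.20 without replicate 2 of the shorter course and 1.03 without its replicate 1. Gabra3 had -0.03 without replicate 3 of the longer course and -0.55 without its replicate 2. Gabrr1 had -0.21 without replicate 2 of the longer course and -0.78 without its replicate 3. Of 23 glutamate receptor genes 0 passed and 0 had an unadjusted p under 0.05, with 11 higher and 12 lower means and a median of -0.04. The kainate subunits Grik2 and Grik5 differed in opposite directions, by 0.66 and -0.60, each without overlap. The AMPA subunit Gria1 differed by 0.45 (0.14 and 0.08 on other probe sets) and the NMDA subunit Grin2b by -0.17. Of 38 potassium channel genes 0 passed and 0 had an unadjusted p under 0.05, with 14 higher and 24 lower means and a median of -0.04.

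Monoamine and acetylcholine genes, which include the wake-promoting transmitter systems, had no call either. Of 51 tested, 0 passed limma's test, 1 had an unadjusted p under 0.05 and was higher, 3 were lower, and 16 had higher and 34 lower means (median -0.13). The median stayed between -0.14 and -0.08 when any halothane array was left out. Chrm3, a muscarinic receptor, had 241.3, 231.5 and 312.6 and then 173.1, 191.5 and 212.8. The courses did not overlap and all 3 later arrays were just below the lowest control (213.6), a log2 difference of -0.44 (unadjusted p = 0.00863), while a second Chrm3 probe set had 0.11. Htr4, a serotonin receptor, and Adrb1, the beta-1 adrenergic receptor, differed by -1.02 and -0.94 at intensities near the floor, and other Htr4 probe sets had 0.16 and 0.00. Slc6a4, the serotonin transporter, which whole brain holds mainly in the raphe, was the higher one at 0.57 (unadjusted p = 0.0334), with 2 of 3 arrays of the shorter course below every control, and 0.37 without replicate 2 of that course. In the release machinery 42 genes were tested, 0 passed and 1 had an unadjusted p under 0.05, with 17 higher and 25 lower means (median -0.03). That gene was Vamp2, synaptobrevin, with 1844.1, 2537.1 and 2110.1 and then 1697.2, 1559.8 and 1638.7, all 3 later arrays below every control (lowest 1709.3) and a log2 difference of -0.40 (unadjusted p = 0.0127), with -0.10 on a second probe set.

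**Figure D4:**
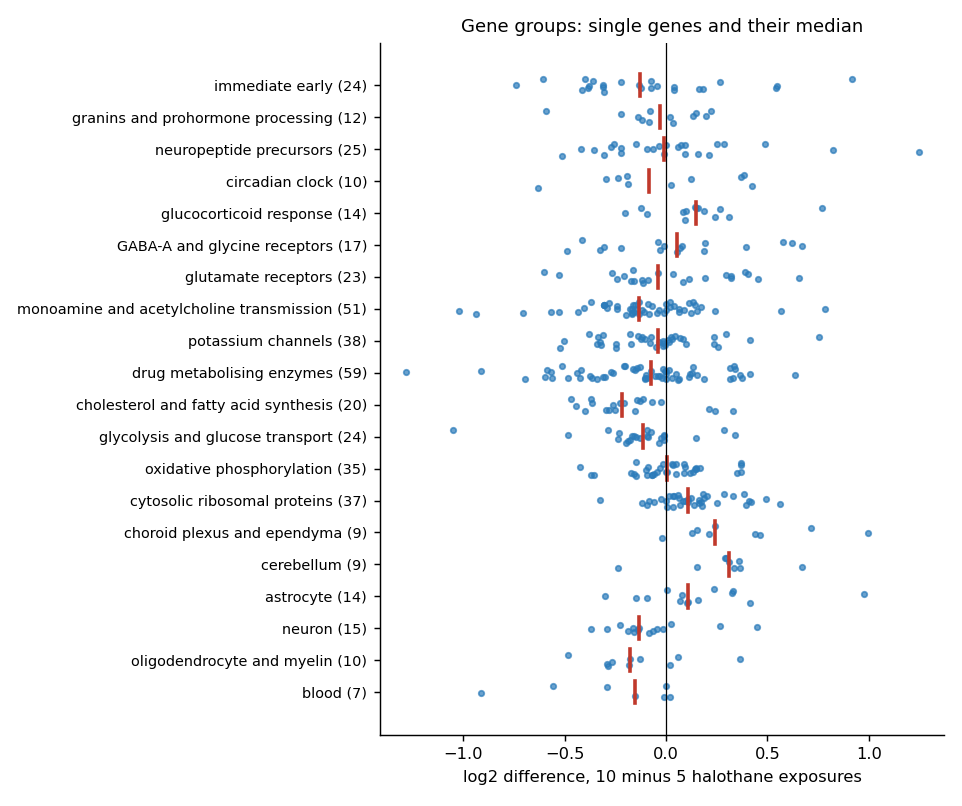
Log2 difference between 10 and 5 halothane exposures for the single genes (points) of 20 groups and the median of each group (vertical bar), with the number of genes tested in brackets. The medians run from -0.22 for cholesterol and fatty acid synthesis to 0.31 for cerebellar markers, and every group holds genes on both sides of 0. The highest blood marker is only at 0.02, and the lowest choroid plexus and ependyma marker only at -0.02.

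Metabolic groups had small differences. Of 20 genes of cholesterol and fatty acid synthesis, 0 passed limma's test and 0 had an unadjusted p under 0.05, while 3 had higher and 17 lower means (median -0.22). The median was between -0.26 and -0.12 when any halothane array was left out. The 4 with the lowest p were Dhcr7, the last enzyme of cholesterol synthesis, at -0.37, Insig1, the sterol sensor that is itself induced when sterols fall, at -0.44, Lss, lanosterol synthase, at -0.47, and Scd2, a brain desaturase, at 0.24. Insig1 had 403.3, 350.3 and 345.4 and then 245.7, 339.9 and 232.2, without overlap and inside the control range. Of 24 genes of glycolysis and glucose transport, 0 passed and 0 had an unadjusted p under 0.05, with 3 higher and 21 lower means (median -0.11, between -0.15 and -0.08 without any halothane array). Pfkfb2, which makes the activator of phosphofructokinase, differed by -1.05 near the floor and by 0.01 on a second probe set. Pfkm, the muscle-type phosphofructokinase, and Pkm, pyruvate kinase, differed by -0.18 and -0.20. Of 37 cytosolic ribosomal protein genes, 0 passed and 3 had an unadjusted p under 0.05, all higher, with 30 higher and 7 lower means (median 0.11). Leaving out replicate 2 of the shorter course, in which Rpl35 had 553.6 against 1191.1 and 1385.8, the median was 0.06, and leaving out replicate 3 of the longer course it was 0.02. Rpl26 had 1511.8, 1075.1 and 1054.2 and then 1667.6, 1579.4 and 1818.3, with all 3 later arrays above every control (highest 1496.4) and a log2 difference of 0.49. Of 35 genes of oxidative phosphorylation, 0 passed and 1 had an unadjusted p under 0.05 (Atp5f1a, an ATP synthase subunit, 0.35, or 0.11 without replicate 2 of the shorter course), with 18 higher and 17 lower means and a median of 0.01.

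Markers of brain regions and cell types are given as measured, and their part in the values above was not tested. Of 9 choroid plexus and ependyma markers, 8 had higher means after 10 exposures (median 0.24), 0 passed limma's test and 2 had an unadjusted p under 0.05. Transthyretin (Ttr), the thyroid hormone carrier that choroid plexus secretes, had 3380.5, 2203.8 and 1349.6 after 5 exposures and 3461.1, 4093.0 and 5615.8 after 10. The largest step was between the high spike-in arrays, replicate 3 of each course, and the log2 difference of 0.99 (adjusted p = 0.576) was 0.46 over the low spike-in arrays. Ttr passed only without replicate 1 of the shorter course (1.32, adjusted p = 0.049). Sostdc1, a secreted antagonist of BMP and Wnt signals, differed by 0.72, Enpp2, autotaxin, by 0.46 and Aqp1, the water channel of the plexus, by 0.44. The summed marker signal was 2825.2 to 5106.7 after 5 exposures, 5260.3 to 7951.0 after 10 and 3974.6 to 5966.4 in the controls, and the list's median over the low spike-in arrays was 0.10.

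Cerebellar markers had higher means as well. Of 9, 8 had higher means (median 0.31), 0 passed limma's test and 0 had an unadjusted p under 0.05. The median was 0.16 over the low spike-in arrays, 0.17 without replicate 3 of the longer course and 0.19 without replicate 2 of the shorter. Gabra6, the granule cell GABA-A subunit, had 806.6, 481.9 and 577.2 and then 857.7, 1014.1 and 1036.2, a log2 difference of 0.67, and Pvalb, Calb1 and Itpr1 of Purkinje cells differed by 0.36, 0.34 and 0.36. Other Itpr1 probe sets had 0.40 to 1.28. Their summed signal ran from 4752.3 to 6128.6 after 5 exposures, from 5736.5 to 8234.9 after 10 and from 3459.9 to 6145.8 in the controls. Blood markers had lower sums after 10 exposures than in the controls. The summed signal of 7 was 529.6, 619.0 or 1101.7 after 5 exposures, 523.1 to 573.7 after 10 and 630.0 to 1095.5 in the controls. Replicate 2 of the shorter course held 343.2 for Hbb-b1, a beta globin, against 94.3 and 114.6 in its group and 78.3, 98.9 and 72.0 after 10 exposures, and all 3 arrays of the longer course were below every control. The Hbb-b1 difference of -0.91 was -0.34 without that array, and that of Hbb, also a beta globin, was -0.56 and turned to 0.14. Globin genes are near-identical copies, and their probe sets can share RNA.

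**Figure D5:**
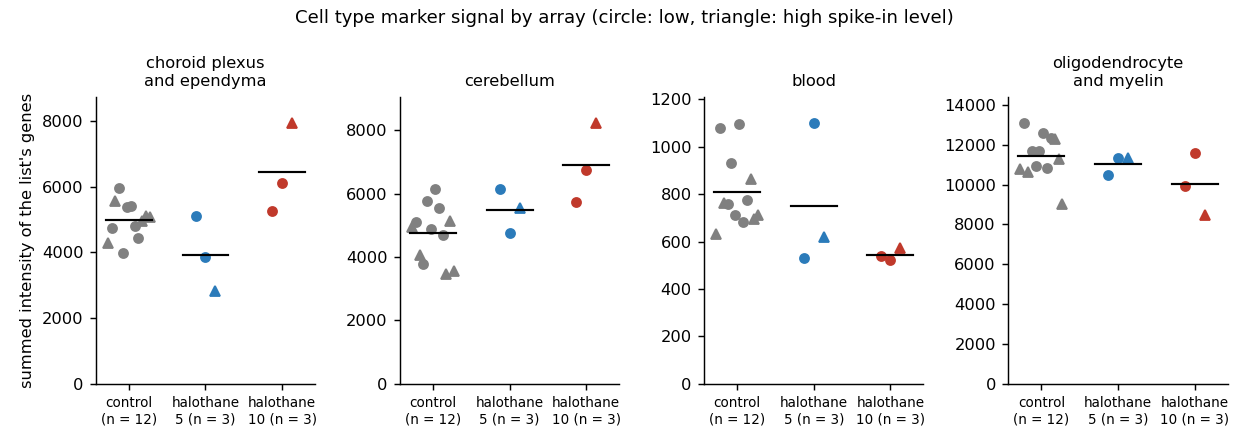
Summed intensity of the genes of 4 marker lists, 1 point per array on axes from 0, with group means as bars and high spike-in arrays as triangles. Choroid plexus signal is 2825.2 to 5106.7 after 5 exposures and 5260.3 to 7951.0 after 10, and the blood signal of 1 array of the shorter course (1101.7) stands above the other 5 halothane arrays.

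The main cell classes had smaller medians. Of 14 astrocyte markers 11 had higher means (median 0.11), led by the water channel Aqp4 at 0.98 (0.61 without replicate 1 of the shorter course), of 15 neuronal markers 12 had lower means (median -0.13), and of 10 oligodendrocyte and myelin markers 7 had lower means (median -0.18). Over the low spike-in arrays these medians were -0.03, -0.02 and -0.08. Microglia and macrophages (16 markers), endothelium and mural cells (13) and meninges (12) had medians of -0.08, -0.06 and 0.18, with 0 members at an unadjusted p under 0.05 in limma's test, and the meningeal median was -0.13 over the low spike-in arrays. Limma called 0 of the 39 markers, and 1 had an unadjusted p under 0.05 and was higher (Gad1, 0.45) and 1 lower (Nrgn, -0.37). Gad1 had 0.08 without replicate 2 of the shorter course and Nrgn -0.20 without replicate 3 of it.

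Whether the step from 5 to 10 exposures depended on the agent was tested as an interaction. Limma called 0 of 7389 probe sets (0%), while 148 were at an unadjusted p below 0.05 (2%). The same step under isoflurane gave 0 calls (0%) and 222 probe sets at an unadjusted p below 0.05 (3%). The lowest interaction p belonged to Ugt2b35, whose isoflurane arrays were 4.8, 4.3 and 6.0 after 5 exposures and 25, 5.7 and 4.6 after 10, so that only 1 of 6 was above the floor. Its interaction was -1.48 ± 0.31 on the log2 scale (SE, limma, unadjusted p = 7.71e-05, adjusted p = 0.57). The next 4 were Supt5h, a transcription elongation factor (3.24), Lpar2, a lysophosphatidic acid receptor (0.98), Gal, the galanin precursor (-1.02), and Phaf1 (0.72), each with an adjusted p of 1. Without replicate 1 of the 10-exposure isoflurane group, Gal passed (-1.48, limma, adjusted p = 1.48e-05). Gal is dim, and it was not tested with the strict filter or the higher floor. Leaving out any 1 array of the 10-exposure halothane or the 5-exposure isoflurane group left its interaction at -1.02. The arrays within each of these groups thus had no spread after flooring, and that low p rests partly on this. With a floor at the 10th percentile the Gal interaction was -1.985 and did not pass. Its halothane step was -0.09. For Il33 the step under isoflurane was 0.51 against 1.34 under halothane, in the same direction. For Vgf, which lay below every control after 10 exposures of either agent, it was -0.07 against -0.59, and for Npy -0.05 against -0.51. Neither difference between agents passed (unadjusted p = 0.0411 and 0.0297, adjusted p = 1 for both), so the steps were not shown to differ.

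The remaining genes with lower means and the lowest p-values complete the list. Ceacam4, a cell adhesion molecule, differed by -0.95 and Pdgfb, a platelet-derived growth factor chain, by -1.34 at intensities near the floor. Avpr2, the vasopressin V2 receptor, had 27.9, 30.3 and 56.4 and then 21.3, 20.2 and 17.6, with all 3 later arrays below every control (lowest 24.7) and a log2 difference of -0.88. Other Avpr2 probe sets had -0.12 and 0.19. Ndrg4, a neuronal protein of vesicle docking, had 4203.7, 4208.4 and 4344.1 and then 3053.3, 3844.6 and 2844.9, a difference of -0.40 without overlap, with -0.17 on a second probe set. Csrp1, a LIM domain protein, differed by -0.46, Fcer2, an immunoglobulin E receptor, by -0.58 and Igfals, a serum carrier of insulin-like growth factors, by -0.65, with -0.21 and 0.19 on its other probe sets. The last 2 genes of the list also have several probe sets. Tpp2, a large peptidase, differed by -1.04, and its other probe sets by 0.04 to 0.45, and Nfyb, a CCAAT-binding factor, differed by -0.74, with 0.32 and -0.11 on its other probe sets.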

How the data were processed

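RNA of whole rat brain was measured on 24 single-colour oligonucleotide arrays. The authors deposited 1 linear intensity per probe set and array, made with software not given in the sources used here. Every array has a 2% trimmed mean of 150.1 to 150.2 and the scaling was kept. Values under 16.5 (25th percentile) were raised to it before log2, and probe sets above it on at least 3 arrays were tested (7389), which understates differences of dim genes. Of these, 6018 have 1 symbol, 267 several (not named) and 1104 none, and 6994 of 7018 single-gene probe sets matched the RefSeq table. The 5 groups were fitted together with limma 3.58.1 in R 4.3.3 (eBayes with intensity trend, two-sided, Benjamini-Hochberg over 7389, threshold 0.05). Standard errors are from this fit. For 3 against 3 arrays the median 95% interval reached 0.52 log2 to either side, and an exact permutation test of a single gene cannot go below p = 0.1. The number of arrays limits the precision.

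Genes were named by a rule: those called, the 12 lowest p among genes higher and the 12 among genes lower after 10 exposures, up to 4 lowest p of each described list and any member of the immediate early, clock, glucocorticoid, granin and blood lists, 5 genes of earlier results and the 5 lowest interaction p. Lists (38, 1 probe set per gene) and members were chosen with earlier results of these data known. Promoters are RefSeq's (GRCr8). The fit was run on simulated normal values with known shifts. These were neither floored nor filtered, so that run does not cover the effects of the floor and filter on Ugt2b35. Alternatives were quantile normalization, median centring, 2 other floors, 2 other filters, no trend, array weights, only the 6 halothane arrays, spike-in level as a block, low spike-in arrays only, a replicate block and each array left out.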

Additional observations from a re-analysis of the deposited data

How the results depend on the processing

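The count of 1 called probe set was also 1 under quantile normalization, the spike-in block and the replicate block, and 2 with array weights. It was 0 under both other filters (the strict one and none), both other floors, median centring, a fit with no intensity trend, a fit of only the 6 halothane arrays, and the low spike-in arrays alone. Ugt2b35 was not tested with the strict filter or the higher floor. Over the 24 fits that each drop 1 array it was 0 to 2, with 0 to 1 higher and 0 to 1 lower, and the interaction count was 0 to 1. Besides Ugt2b35, the genes called in 1 of these fits were Ttr, Phaf1 and Pde5a (0.70, without replicate 2 of the 10-exposure group), and M33648_at was called in 2. The count at an unadjusted p under 0.05 was 168 with the strict filter, which tests fewer probe sets, and 455 with array weights, and 250 to 428 when 1 array was dropped. Of the gene differences in the text, 2 changed sign: Hbb, from -0.92 to 0.14, and Fos, from -0.21 to 0.09, over fits that drop an array (Hbb 0.14 without replicate 2 of the shorter course; Fos 0.03 and 0.089 without replicate 1 of the shorter or of the longer course). Of 3993 values of single genes under an alternative, interactions included, 3960 kept direction and side of the threshold, 24 lost the call, 6 gained it and 3 changed sign. All lost calls were those of Ugt2b35, the only gene called, which passed in 10 of 34 alternatives. The tally is no measure of stability. Leaving out a control or isoflurane array cannot change a difference between the halothane courses, and nearly all values had not passed at the outset. Where no cause is given, the cause was not tested.

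Arrays with the same replicate number in both courses had correlated deviations of 0.096, 0.156 and 0.378 for numbers 1, 2 and 3, and number 1 of the longer course correlated best with number 2 of the shorter (0.215), so the numbers were not taken as pairs. With the replicate block the count stayed at 1 (Ugt2b35, adjusted p = 0.0395) and the interaction count at 0. Dim probe sets limit what can be seen: for Ugt2b35 only the drop to the floor is measured.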

Other observations

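Growth factor genes had no call. Of 35 tested, 0 passed limma's test, 2 had an unadjusted p under 0.05 and were higher, 2 were lower, and 21 had higher and 14 lower means (median log2 difference 0.09). Vegfa, the angiogenic factor, had intensities of 41.6, 111.9 and 35.9 after 5 exposures and 122.8, 115.9 and 167.1 after 10, a log2 difference of 1.28 (unadjusted p = 0.0198). Igf1, insulin-like growth factor 1, had 52.6, 162.8 and 84.6 and then 36.5, 34.9 and 32.2, a difference of -1.38 (unadjusted p = 0.0287), with 2 of 3 later arrays below every control. The 3 other Vegfa probe sets had 0.04 to 0.39, and the 4 other Igf1 probe sets -0.05 to 0.06. Ptn, pleiotrophin, differed by 0.60 without overlap. Each of these genes spanned a wide range over the controls, from 37.7 to 163.9 for Vegfa and from 35.7 to 167.5 for Igf1.

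Stress and cell death genes showed no call. Of 29 heat shock and chaperone genes, 0 passed limma's test and 0 had an unadjusted p under 0.05, with 9 higher and 20 lower means (median -0.07). The small heat shock genes Hspb1 and Cryab differed by -0.25 and -0.39, and all 3 Hspb1 arrays after 10 exposures (509.7, 403.2 and 512.3) were below the lowest control (525.9), while its other probe sets had 0.01 to 0.54. Of 15 apoptosis genes, 0 passed and 1 had an unadjusted p under 0.05: Tnfrsf1a, a tumour necrosis factor receptor, had 169.5, 193.7 and 150.0 and then 85.5, 49.1 and 41.2, a log2 difference of -1.61 (unadjusted p = 0.00937), while the controls ran from 42.7 to 213.3. Cpt1a, the gate of mitochondrial fatty acid oxidation, had 137.6, 141.0 and 86.5 and then 151.2, 141.1 and 173.4, all 3 later arrays above the highest control of 130.3, and a difference of 0.38, or 0.07 over the low spike-in arrays and 0.15 without replicate 3 of the shorter course. The glutamate transporter Slc1a1 differed by -0.32 (0.39 and -0.20 on other probe sets), the G protein subunits Gnb1 and Gng5 by -0.36 and 0.41, the neurexin gene Nrxn2 by -0.29, and the myelin genes Mal, Cnp and Mag by -0.29, -0.29 and -0.26.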
